A study of Mus musculus with 10 samples.

Results

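The 10 macrophage genes Cd68, Adgre1, Csf1r, C1qa, C1qb, C1qc, Mrc1, Cd163, Lyz2 and Mpeg1 were followed through a count table of pancreas RNA. They are the rows with these symbols, 10 of the 24421 genes in the table, and were not picked by a threshold on their values. All 10 passed the filter on low counts, which 13688 genes passed. Each library was made from a piece of the pancreas tail of 1 female mouse aged 12 weeks. All mice carried Ptf1aCreER, a Cre recombinase that tamoxifen switches on in cells using the promoter of Ptf1a, in the adult pancreas the acinar cells, and the nuclear reporter nTnG. The groups differ in Insr, the insulin receptor gene: the 3 libraries labelled Insr WT (here WT) had 0 floxed alleles, the 3 labelled Insr Het had 1 and the 4 labelled Insr KO had 2. A floxed allele is one that Cre can delete, here in acinar cells, so macrophages were not the cells targeted. When tamoxifen was given is not stated in the sources used here. Libraries are named by group and mouse number, as in WT-2404. By its title, the series asks whether the acinar insulin receptor affects digestive enzyme production and inflammation.

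Macrophages are phagocytes that reside in every organ, in the pancreas around acini, ducts and islets, and that monocytes from the blood can replenish. Their survival depends on Csf1r, the receptor for the growth factors Csf1 and Il34, and their identity on the transcription factor PU.1, encoded by Spi1. C1qa, C1qb and C1qc encode the chains of C1q, which starts the classical complement cascade and tags dying cells for uptake, and macrophages are its main source. Mrc1 and Cd163 are scavenger receptors typical of resident macrophages, Lyz2 is the lysozyme of myeloid cells, and Mpeg1 forms pores in engulfed microbes. In RNA from a whole tissue piece, fewer cells of a type and less RNA per cell cannot be told apart.

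Some sequences bear on how these genes can be read. Lyz2 (chromosome 10, chr10:117277331-117282321, minus strand, GRCm38) lies beside a near-copy, Lyz1 (chr10:117287797-117292868, minus strand), the lysozyme of the gut's Paneth cells. Their coding sequences in the GENCODE transcripts are 444 bases each and identical at 422 positions (95%), with a longest identical stretch of 118 bases, so short reads from one can match the other. The first 90 coding bases are shown because they hold 7 of the 22 differences, which stand in capitals:
Lyz2: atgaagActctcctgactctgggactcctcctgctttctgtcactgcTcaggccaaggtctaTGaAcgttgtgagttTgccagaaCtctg
Lyz1: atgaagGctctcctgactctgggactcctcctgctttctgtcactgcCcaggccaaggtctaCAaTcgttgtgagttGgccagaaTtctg
How the authors' counting treated reads that fit both genes is not given in the sources used here, so the split between Lyz2 and Lyz1 is uncertain to that extent.

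The 3 C1q genes lie side by side on the minus strand of chromosome 4, with C1qb at chr4:136880129-136886187, C1qc at chr4:136889804-136893065 and C1qa at chr4:136895917-136898803 (GRCm38). The promoters of C1qb (chr4:136886151-136886450) and C1qc (chr4:136892865-136893164), from RefSeq on GRCm38.p6, run from 250 bases before to 50 bases after the gene's start in RefSeq. These starts differ from those of the gene spans above, which are from GENCODE. The promoters are shown as the start regions of neighbouring members whose products form 1 protein. Capitals mark GAGGAA, the core letters of the site that PU.1 binds, found on either strand (TTCCTC on the strand printed where it lies on the other):
C1qb: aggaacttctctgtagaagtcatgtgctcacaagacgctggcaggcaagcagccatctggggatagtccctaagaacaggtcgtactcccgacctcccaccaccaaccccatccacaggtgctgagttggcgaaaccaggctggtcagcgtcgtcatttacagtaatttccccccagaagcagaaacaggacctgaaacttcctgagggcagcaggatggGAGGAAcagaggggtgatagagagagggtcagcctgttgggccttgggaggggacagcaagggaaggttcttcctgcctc
C1qc: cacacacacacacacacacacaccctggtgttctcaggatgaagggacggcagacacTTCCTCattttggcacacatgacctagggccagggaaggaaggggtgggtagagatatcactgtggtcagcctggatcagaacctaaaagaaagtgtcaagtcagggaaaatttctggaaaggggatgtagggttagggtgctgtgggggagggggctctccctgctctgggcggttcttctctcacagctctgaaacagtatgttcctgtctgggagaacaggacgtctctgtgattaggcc
The match begins 30 bases before the RefSeq start of C1qb and 193 bases before that of C1qc. Of the 7 members with a promoter in the table, 4 hold these letters (57.1%): Mrc1 with 3 matches, Cd68 with 2, and C1qb and C1qc with 1 each. Cd163, Lyz2 and Mpeg1 hold 0. Among all 32851 promoters of this length, 9289 (28.3%) hold them. A match of 6 letters is a description of the sequence and says nothing of binding in these mice.

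The libraries differed in their makeup. Depth ranged from 11718559 gene counts (WT-1860) to 19024351 (Het-2042), and overlapped between groups. Digestive enzyme genes took 15.9% of all gene counts in WT-2404 and 58.6% in WT-1860, against 62.7% to 77.8% in the other 8 libraries. WT-2404 stands apart, and the comparisons with WT are given with and without it. Insr itself, the targeted gene, was at 21.04, 27.8 and 40.5 CPM in the WT libraries. It was at 43.2, 44.2 and 28.2 in Het, and at 22.7 in KO-2079, 33.3 in KO-2070, 35.5 in KO-2124 and 34.7 in KO-2126. Between KO and WT its log2 fold change of 0.085 (SE 0.26, edgeR adjusted p = 0.864) does not check the labels, since whole-tissue gene counts need not show a deletion in acinar cells. CPM here are counts-per-million of the library size after TMM scaling, which matches libraries on the bulk of their genes.

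Lineage genes were examined first. Csf1r (chromosome 18, chr18:61100598-61132149, plus strand), the receptor that keeps macrophages alive, was at 45.04 CPM in WT-2067, 61.5 in WT-1860 and 161 in WT-2404. Csf1r was at 24.2 in Het-2066, 34.02 in Het-1770 and 39.8 in Het-2042. In KO libraries Csf1r was at 42.8 in KO-2079, 17.1 in KO-2070, 52.9 in KO-2124 and 19.1 in KO-2126. WT-2404 was far above every other library, all 3 Het libraries were below all 3 WT libraries, and the KO libraries were spread, with KO-2124 inside the WT range and KO-2070 and KO-2126 the lowest of all. The log2 fold change of Csf1r was -1.43 in KO (SE 0.48, edgeR adjusted p = 0.132) and -1.45 in Het (SE 0.53, adjusted p = 0.196), each relative to WT, and neither passed 0.05. Adgre1 (chr17:57358691-57483527, plus strand) encodes F4/80, the classical surface marker of mouse macrophages, and was at 11.6 CPM in WT-2067, 19.1 in WT-1860 and 44.4 in WT-2404. Adgre1 was at 5.703 in Het-2066, 9.51 in Het-1770 and 10.2 in Het-2042, and at 11.8 in KO-2079, 4.35 in KO-2070, 15.2 in KO-2124 and 5.46 in KO-2126. Here too the Het libraries lay below all WT libraries and the KO libraries overlapped them, with log2 fold changes of -1.42 in KO (SE 0.49, edgeR adjusted p = 0.138) and -1.57 in Het (SE 0.55, adjusted p = 0.187). Cd68 (chr11:69664213-69666153, minus strand), a glycoprotein of the macrophage's lysosomes, was at 12.3 CPM in WT-2067, 19.3 in WT-1860 and 60.6 in WT-2404. Cd68 was at 5.62 in Het-2066, 12.2 in Het-1770 and 7.74 in Het-2042, and at 11.9 in KO-2079, 3.56 in KO-2070, 12.9 in KO-2124 and 4.75 in KO-2126. It had the widest span of the members, 17.04-fold from WT-2404 to KO-2070, where it rested on 27 counts. Its log2 fold changes, -1.87 in KO (SE 0.58, edgeR adjusted p = 0.125) and -1.86 in Het (SE 0.64, adjusted p = 0.186), were the lowest of the 10 members in both comparisons.

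The complement genes ranked the libraries in nearly the order of the lineage genes. C1qa was at 55.6 CPM in WT-2067, 89.6 in WT-1860 and 231 in WT-2404. C1qa was at 24.4 in Het-2066, 40.9 in Het-1770 and 50.5 in Het-2042. In the KO group C1qa was at 50.2 in KO-2079, 20.2 in KO-2070, 61.8 in KO-2124 and 21.8 in KO-2126. Once more the Het group was separate from WT and the KO group was not, since KO-2124 exceeded WT-2067. C1qb was at 50.1 CPM in WT-2067, 96.8 in WT-1860 and 236 in WT-2404, at 28.4 in Het-2066, 43.2 in Het-1770 and 42.2 in Het-2042, and at 54.2 in KO-2079, 17.1 in KO-2070, 62.7 in KO-2124 and 16.3 in KO-2126. C1qc was at 43.3 CPM in WT-2067, 74.6 in WT-1860 and 193 in WT-2404, at 22.2 in Het-2066, 29.8 in Het-1770 and 34.3 in Het-2042, and at 41.0 in KO-2079, 12.4 in KO-2070, 53.7 in KO-2124 and 17.4 in KO-2126. The lowest library was KO-2070 for C1qa and C1qc and KO-2126 for C1qb. Between KO and WT the log2 fold change was -1.70 for C1qa (SE 0.52, edgeR adjusted p = 0.122), -1.76 for C1qb (SE 0.57, adjusted p = 0.128) and -1.73 for C1qc (SE 0.56, adjusted p = 0.127). Het against WT gave -1.70 (SE 0.57, edgeR adjusted p = 0.184), -1.75 (SE 0.63, 0.195) and -1.85 (SE 0.62, 0.184) in the same order. None of the C1q genes passed 0.05 in either comparison.

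The scavenger receptors were not alike. Mrc1 (chr2:14229392-14332057, plus strand), the mannose receptor CD206, was at 35.1 CPM in WT-2067, 57.7 in WT-1860 and 181 in WT-2404. Mrc1 was at 22.7 in Het-2066, 33.8 in Het-1770 and 27.8 in Het-2042, and at 38.2 in KO-2079, 13.4 in KO-2070, 44.9 in KO-2124 and 14.9 in KO-2126. Its log2 fold change was -1.71 in KO (SE 0.56, edgeR adjusted p = 0.129) and -1.70 in Het (SE 0.62, adjusted p = 0.196), with Het separate from WT. Cd163 (chr6:124304656-124330527, plus strand), the receptor that clears haemoglobin bound to haptoglobin, was at 10.2 CPM in WT-2067, 18.7 in WT-1860 and 48.2 in WT-2404. Cd163 was at 10.3 in Het-2066, 14.9 in Het-1770 and 10.2 in Het-2042, and at 13.7 in KO-2079, 5.402 in KO-2070, 20.2 in KO-2124 and 6.27 in KO-2126. It was the only member for which the Het group overlapped the WT group, and the only one for which KO-2124 and not WT-1860 was the second highest library. Its differences from WT were the smallest in size of the 10, -1.15 in KO (SE 0.53, edgeR adjusted p = 0.218) and -1.14 in Het (SE 0.58, adjusted p = 0.287).

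The effector genes were Lyz2 and Mpeg1. Lyz2 was the member with the most counts, at 192 CPM in WT-2067, 286 in WT-1860 and 718 in WT-2404. Lyz2 was at 104 in Het-2066, 124 in Het-1770 and 152 in Het-2042. In the KO group it was at 183 in KO-2079, 52.04 in KO-2070, 215 in KO-2124 and 58.2 in KO-2126. Again Het was separate from WT and KO was not, with log2 fold changes of -1.65 (SE 0.61, edgeR adjusted p = 0.199) and -1.65 (SE 0.56, adjusted p = 0.132). Its near-copy Lyz1, at 2.32 to 7.99 CPM, had 0.00698 counts per Lyz2 count in WT-2404 and 0.0937 in KO-2070, so it stayed a small part of the pair. Lyz1 had log2 fold changes of -0.12 in KO (SE 0.36, edgeR adjusted p = 0.868) and -0.17 in Het (SE 0.39, adjusted p = 0.822), and its level was not ordered like that of Lyz2. Mpeg1 (chr19:12460779-12465283, plus strand), perforin-2, was at 43.6 CPM in WT-2067, 54.6 in WT-1860 and 135 in WT-2404. Mpeg1 was at 19.4 in Het-2066, 27.3 in Het-1770 and 39.05 in Het-2042, and at 43.8 in KO-2079, 13.3 in KO-2070, 41.1 in KO-2124 and 10.6 in KO-2126. Mpeg1 had log2 fold changes of -1.51 in KO (SE 0.54, edgeR adjusted p = 0.146) and -1.44 in Het (SE 0.59, adjusted p = 0.221), with ranges that overlapped WT in KO alone.

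**Figure D1:**
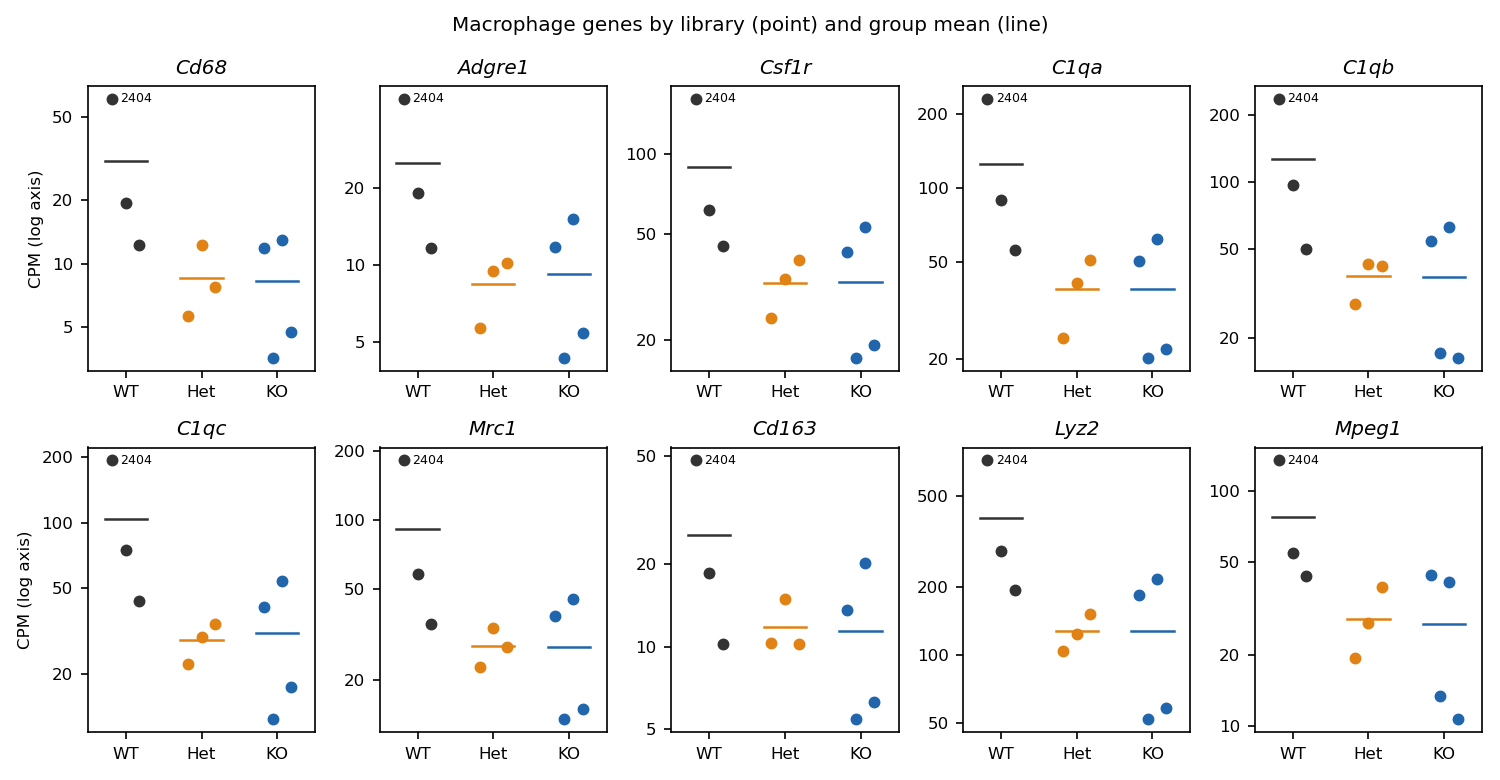
Level of each macrophage gene in each library, in CPM on a log axis, with 1 point per mouse and the group mean as a line. WT-2404 is the highest library for all 10 genes, and the Het libraries lie below all WT libraries for each gene but Cd163, narrowly for Cd68.

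Set side by side, the 10 genes moved together from library to library. WT-2404 was the highest library for all 10, 2.33-fold (Adgre1) to 3.14-fold (Cd68 and Mrc1) above the second highest. The second was WT-1860 for every member except Cd163, and the lowest was KO-2070 for 8 members and KO-2126 for C1qb and Mpeg1. From lowest to highest library the genes spanned 8.91-fold (Cd163) to 17.0-fold (Cd68), and 3.59-fold (Csf1r) to 6.02-fold (C1qc) over the 9 libraries without WT-2404. Pearson's r between members, across the 10 libraries and over 45 pairs, ran from 0.902 to 0.995 with a median of 0.981, and without WT-2404 from 0.815 to 0.991 with a median of 0.965. These r values are a description, since all genes of a library share its depth and its makeup. Together the members took 0.7097% of all gene counts in WT-2404 (Wilson 95% interval 0.706% to 0.714%), 0.0438% in WT-2067 and 0.121% in WT-1860. They took 0.0222%, 0.0235% and 0.0354% in Het-2066, Het-1770 and Het-2042. In KO-2079 the share was 0.0436%, in KO-2070 0.0100% (0.00948% to 0.0106%), in KO-2124 0.0789% and in KO-2126 0.0104%. The intervals cover counting error alone and are narrow beside the spread between mice of a group.

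Compared per kilobase of exon, the levels of the genes formed tiers. Averaged over the libraries, Lyz2 stood at 159 CPM per kilobase, above C1qa in 10 of 10 libraries. C1qa, at 62.2 CPM per kilobase, was above C1qb, at 59.5, in 6 of 10 libraries, so this pair had no stable order. C1qb was above C1qc, at 43.4, and C1qc above Cd68 in 10 of 10 libraries. Below these came Cd68 at 12.0, Csf1r at 10.2, Mpeg1 at 9.87 and Mrc1 at 8.74 CPM per kilobase. Cd68 exceeded Csf1r in 5 of 10 libraries, Csf1r exceeded Mpeg1 in 6 and Mpeg1 exceeded Mrc1 in 8, so the order within this tier changed between mice. Adgre1, at 4.24, was above Cd163, at 3.52, in 8 of 10 libraries, and both were below Mrc1 on average. Exon lengths are those of the GENCODE annotation on GRCm38, which may differ from the one the authors counted on.

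Read against the whole table, KO against WT gave the following. In edgeR, 0 of 10 members passed an adjusted p of 0.05, as did 0% of all 13688 genes tested, where the smallest adjusted p was 0.116. At an unadjusted p under 0.05, 9 of 10 members were lower in KO, all but Cd163, against 13.9% of all genes. All 10 fold changes were below 0, against 48.1% of all genes, with a median log2 fold change of -1.67 (3.19-fold lower) where the median of all genes was 0.025. DESeq2, with its own dispersion estimate, called 9 of 10 members, again all lower and all but Cd163, against 5.32% of all genes called lower, with members' adjusted p of 0.0208 to 0.135. No member had KO and WT ranges that did not overlap, against 9.15% of all genes that were separate and lower in KO. Exact permutation tests on log2 CPM gave p of 0.114 to 0.257 for the members (two-sided, smallest possible 0.0286).

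Het against WT, which uses the same 3 WT libraries, gave nearly the same values. Again 0 of 10 members passed in edgeR, with 0% of all genes called and a smallest adjusted p of 0.184. At an unadjusted p under 0.05, 9 of 10 members were lower in Het, against 11.6% of all genes. All 10 fold changes were below 0, against 49.7% of all genes, and their median was -1.68 on the log2 scale, where that of all genes was 0.0046. Ranges did not overlap for 9 of 10 members, lower in Het, against 13.5% of all genes. The exact permutation p of these 9 was 0.1 each, the smallest that 3 against 3 libraries allow, and that of Cd163 was 0.3. Some of the separations were narrow. Cd68 was at 12.2 CPM in Het-1770 against 12.3 in WT-2067, and Mrc1 at 33.8 against 35.1 in the same libraries. DESeq2 called C1qa (adjusted p = 0.0498) and C1qc (adjusted p = 0.0435) as lower, against 1.81% of all genes. Because both comparisons rest on the same WT libraries, the likeness of their values is no independent support for either.

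KO and Het libraries, a comparison without WT, could not be told apart in these genes at this spread between mice. The members' log2 fold changes in KO against Het ran from -0.062 (Mpeg1) to 0.15 (Adgre1), 5 below 0, where 48.5% of all genes were, and 5 above, with standard errors of 0.49 to 0.65 that leave room for differences of that size. No member passed in edgeR (0 of 10, with 0 of 10 at an unadjusted p under 0.05 and 0 in DESeq2), where 0.752% of all genes were at an unadjusted p under 0.05. Group means were as close: Lyz2 was at 127 ± 24.02 CPM in the Het group (SD, n = 3), 127 ± 84.4 in the KO group (SD, n = 4), and 399 ± 280.2 in WT (SD, n = 3). The spread was wider in KO, where Csf1r was at 32.99 ± 17.7 CPM (SD, n = 4), than in Het, where it was at 32.7 ± 7.899 (SD, n = 3), and this difference in spread was not tested.

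The differences from WT depended on WT-2404. Without it, the members' log2 fold changes were between -0.93 and -0.29 in KO against WT (edgeR adjusted p 0.546 to 0.859) and between -1.01 and -0.28 in Het against WT (adjusted p 0.618 to 0.865). The medians were -0.85 and -0.86, and 0 of 10 members were lower at an unadjusted p under 0.05 in either comparison, against 5.29% of all genes in KO and 3.61% in Het. All 10 stayed below 0 in both. Without WT-2067, the WT library lowest in all 10 members, 8 members passed in edgeR in KO against WT, all but Cd163 (adjusted p = 0.0786) and Mpeg1 (adjusted p = 0.0777), as 1932 genes did, with a median of -2.01. In Het the members passing without WT-2067 were 0 of 10, with 1160 genes called. The shares of all tested genes called lower without WT-2067 are not given here. Scaling by library size alone called all 10 members in both comparisons, with medians of -3.06 and -3.45, where the median of all genes was itself moved to -1.17 and -1.36. Many other genes were called with that scaling as well, as counted in the last section. Acinar content ran opposite to the members at both ends of its range. The libraries with the smallest enzyme share, WT-2404 at 15.9%, WT-1860 at 58.6% and KO-2124 at 62.7%, had the highest summed level of the members, at 2009, 778 and 581 CPM. The largest enzyme shares, in KO-2070 (77.8%) and KO-2126 (77.7%), went with the lowest sums, 159 and 175 CPM. Between these ends the sums differed at similar enzyme shares. They were 491 CPM in KO-2079 (71.2%), 267 in Het-2066 (71.7%), 499 in WT-2067 (71.8%) and 414 in Het-2042 (72.0%). Among gene counts outside the enzymes the members still took 0.156% in WT-2067, 0.293% in WT-1860 and 0.844% in WT-2404, against 0.0784% to 0.127% in Het and 0.0451% to 0.211% in KO libraries. With the log2 ratio of enzyme to other gene counts as a covariate, the members' median was -0.55 for KO and -0.40 for Het, each against WT, with 0 of 10 at an unadjusted p under 0.05. The share of all genes under that p with the covariate is not given here, so the 0 of 10 has no background to be read against. In that fit Cd163 was above 0, at 0.048 and 0.22. Genotype and acinar content cannot be told apart in these libraries, since the libraries with the smallest enzyme shares, WT-2404 and WT-1860, are both WT.

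**Figure D2:**
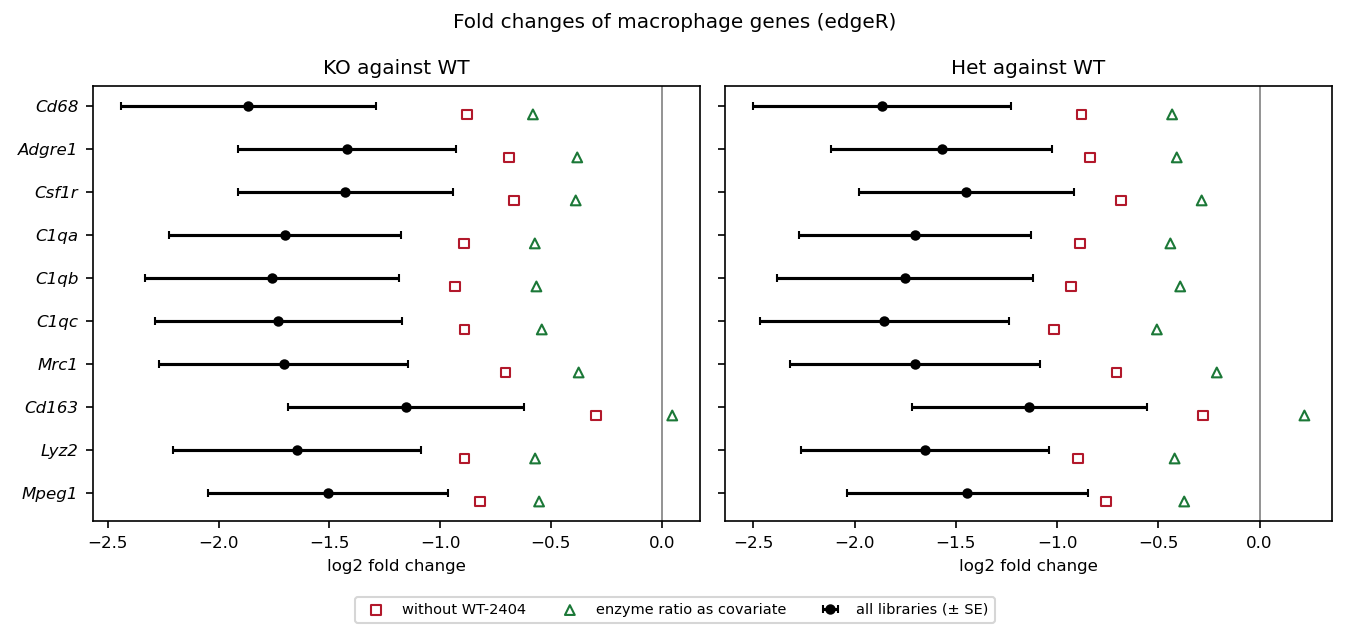
Log2 fold change of each macrophage gene (edgeR) in KO and in Het, each against WT, over all libraries with its standard error as a bar, without WT-2404 and with the enzyme ratio as a covariate. Over all libraries the 10 genes lie between -1.87 and -1.14, and they lie nearer 0 in both other fits, where Cd163 passes 0 with the covariate.

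**Figure D3:**
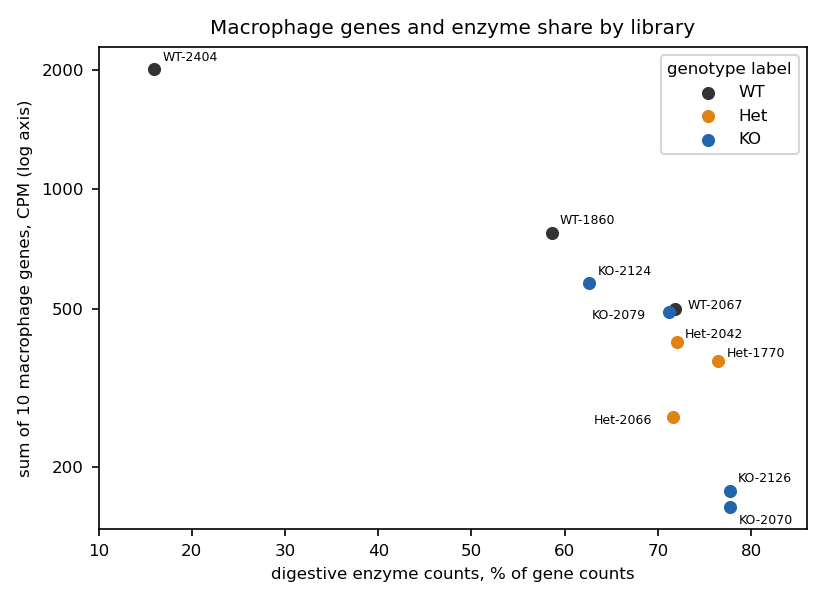
Summed level of the 10 macrophage genes (CPM, log axis) against the share of gene counts in digestive enzyme genes (percent), with 1 point per library coloured by group. WT-2404 stands alone at 15.9% enzyme counts and 2009 CPM, and the lowest sums, 159 and 175 CPM, are at the largest enzyme shares.

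Ratios between members within a library do not depend on the scaling of libraries. Over the 45 pairs of members, the ratio of counts varied 1.30-fold (Adgre1 to C1qa) to 2.51-fold (Cd163 to Mpeg1) from its lowest to its highest library, with a median of 1.70-fold. C1qa to C1qb, with a 1.56-fold range near the median pair, ran from 0.858 in Het-2066 to 1.34 in KO-2126. C1qc to C1qb ran from 0.691 in Het-1770 to 1.07 in KO-2126, while C1qb itself varied 14.5-fold in CPM. Cd163 departed from the other members, a choice made after its values were seen and given with no test. Per count of Mrc1 there were 0.266, 0.323 and 0.291 counts of Cd163 in WT-2404, WT-1860 and WT-2067. There were 0.452, 0.441 and 0.367 in Het-2066, Het-1770 and Het-2042. In KO-2079, KO-2070, KO-2124 and KO-2126 there were 0.358, 0.402, 0.4497 and 0.422. All 3 WT libraries lay below all 7 others. Of all tested genes with a count in each of the libraries compared, 11.3% had a ratio to Mrc1 that was separate and higher in KO than in WT, and 45.5% one separate and higher in Het, so the separation is not particular to Cd163. Relative to Csf1r, Cd163 was at 0.227 to 0.303 counts per count in WT, 0.315 to 0.382 in KO and 0.256 to 0.438 in Het libraries. Of the 9 ratios of Cd163 to another member, 8 were separate between KO and WT, all with the larger Cd163 share in KO, and 4 of 9 between Het and WT. Of the other 36 pairs 5 were separate between KO and WT. Between Het and WT, 5 of all 45 pairs were separate. The 9 ratios all share the counts of Cd163, so they are not independent results. The share over all genes was counted for ratios to Mrc1 alone. Lyz2 per count of Csf1r was 4.27 to 4.66 in WT and 3.04 to 4.28 in KO libraries, which overlapped by a small margin.

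**Figure D4:**
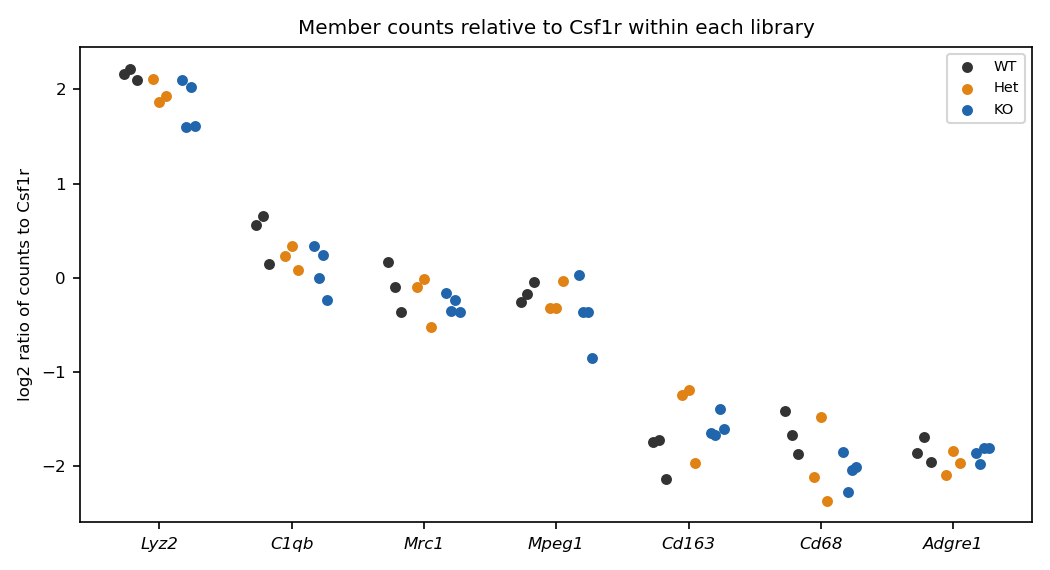
Log2 ratio of the counts of 7 macrophage genes to those of Csf1r within each library, with 1 point per library coloured by group. Each gene keeps its place relative to Csf1r to within 1 log2 unit over the 10 libraries. Cd163 is lower relative to Csf1r in the 3 WT than in the 4 KO libraries, by a small margin between WT-1860 and KO-2070. The share of all genes with such a separation relative to Csf1r was not counted.

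Other leukocytes and tissue cells gave a reference within each library. Per count of Ptprc, which encodes CD45 on all leukocytes, there were 50.02 member counts in WT-2404 and 20.4 and 22.3 in the other WT libraries. The Het libraries had 22.6, 32.5 and 30.7 and the KO libraries 16.3 to 34.6, so WT-2404 was the highest and the other WT libraries lay within the KO range. Against the fibroblast list, whose genes include the collagens, the member counts were 0.395 to 0.457 per count in WT, 0.406 to 0.489 in Het and 0.326 to 0.725 in KO libraries. Both sets were highest in WT-2404, and their ratio stayed between 0.326 and 0.489 in the 9 libraries other than KO-2124. Against the endothelial list the ratio spread further, from 0.785 in KO-2070 to 17.4 in WT-2404.

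The growth factor axis and the transcription factors of macrophages were examined as a list of 10 genes. Of these, 8 were lower in KO than in WT and 9 lower in Het, with medians of -1.16 and -1.25, and 0 passed in edgeR. At an unadjusted p under 0.05 7 and 7 were lower, against 13.9% and 11.6% of all genes, and DESeq2 called 4 and 3, against 5.32% and 1.81% called lower. Spi1, which encodes PU.1, was at 6.62 CPM in WT-2067, 12.1 in WT-1860 and 26.5 in WT-2404. Spi1 was at 2.98 in Het-2066, 4.66 in Het-1770 and 4.605 in Het-2042, and at 5.63 in KO-2079, 1.32 in KO-2070, 6.73 in KO-2124 and 2.02 in KO-2126. Its log2 fold changes, -1.89 in KO (SE 0.54, edgeR adjusted p = 0.119) and -1.89 in Het (SE 0.60, adjusted p = 0.184), were of the size seen for Cd68. The ligands differed less: Csf1 had -0.76 in KO (SE 0.34, edgeR adjusted p = 0.209) and -0.95 in Het (SE 0.37, adjusted p = 0.208), and Il34 -0.61 in KO (SE 0.43, adjusted p = 0.402). Maf, a transcription factor of resident macrophages, had -1.21 (SE 0.40, adjusted p = 0.128 in edgeR).

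Lists of resident and of recruited macrophages had 0 genes past 0.05 in edgeR. Of the 13 genes of the resident list, 13 were lower in KO and 13 in Het than in WT, with medians of -1.53 and -1.63 and 7 and 7 lower at an unadjusted p under 0.05, against 13.9% and 11.6% of all genes. The genes named from it ranged from Folr2, the folate receptor of resident macrophages, at -1.91 in KO (SE 0.61, edgeR adjusted p = 0.127), to Timd4, a receptor for dying cells, at -0.25 (SE 0.40, adjusted p = 0.728). Between them lay F13a1, coagulation factor XIII, at -1.70 (SE 0.64), Lyve1, a hyaluronan receptor that lymphatic vessels also make, at -1.04 (SE 0.53), and Gas6, the ligand of Axl, at -0.60 (SE 0.27). Of the 10 monocyte genes, 10 were lower in KO and 10 in Het, with medians of -1.66 and -1.56 and 6 and 4 at an unadjusted p under 0.05. Ccr2, the receptor by which monocytes leave the marrow, was at 23.3 CPM in WT-2067, 29.2 in WT-1860 and 62.05 in WT-2404. Ccr2 was at 7.81 in Het-2066, 13.4 in Het-1770 and 12.3 in Het-2042, and at 18.5 in KO-2079, 8.04 in KO-2070, 10.7 in KO-2124 and 3.74 in KO-2126. Ccr2 was lower in every KO library than in every WT library, as 9.15% of all genes were. The Het libraries were separate as well, as for 13.5% of all genes. Its log2 fold change was -1.88 in KO (SE 0.47, edgeR adjusted p = 0.116, DESeq2 adjusted p = 0.00753) and -1.77 in Het (SE 0.51, edgeR adjusted p = 0.184). Cx3cr1, the fractalkine receptor, had -1.73 in KO (SE 0.57, adjusted p = 0.129 in edgeR) and Thbs1, thrombospondin, -1.19 (SE 0.39, 0.127). Ly6c2, the marker of inflammatory monocytes, was at the limit of these libraries, with 2.61 CPM in WT-2404, 1.15 and 0.4902 in the other WT libraries and 0 to 0.877 in Het and KO. A count of 0 allows up to 3 counts, 0.0501 to 0.395 CPM depending on the library.

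Functional lists gave these counts. All 16 phagocytic and activating receptors were lower in KO and in Het, with medians of -1.65 and -1.62 and 13 and 13 at an unadjusted p under 0.05, against 13.9% and 11.6% of all genes. DESeq2 called 9 and 7 of them, against 5.32% and 1.81% of all genes called lower. Sirpa, the receptor of the CD47 signal against uptake, had -1.17 in KO (SE 0.40, edgeR adjusted p = 0.132) and Axl, a receptor for dying cells that other tissue cells also use, -0.40 (SE 0.28, adjusted p = 0.382). In the lipid and lysosomal list, 10 of 12 were lower in KO and 10 in Het, with medians of -1.18 and -1.38. Trem2, a lipid sensor of phagocytes, was lower in every KO than in every WT library, as 9.15% of all genes were. The margin was small, 3.87 CPM in KO-2124 against 3.98 in WT-2067. Trem2 was at 2.27 ± 1.59 CPM in KO (SD, n = 4) against 9.12 ± 8.23 in WT (SD, n = 3), or -1.94 as log2 fold change (SE 0.63, edgeR adjusted p = 0.128). Apoe, the lipid carrier, was at 230.3 ± 114 CPM in KO (SD, n = 4) and 636 ± 422 in WT (SD, n = 3), or -1.47 as log2 fold change (SE 0.47, edgeR adjusted p = 0.125), and the protease Ctsd had -0.88 (SE 0.33, 0.149). Of the 10 activation genes 7 were tested, since Nos2, Tnf and Il10 had too few counts, and 7 of 7 were lower in both comparisons, with medians of -0.94 and -1.19. Retnla, made by alternatively activated macrophages, had -1.14 in KO (SE 0.61, edgeR adjusted p = 0.271) and Socs3, a brake on cytokine signalling, -0.94 (SE 0.26, 0.116). The 12 partners and receptors of complement were lower in 12 of 12 in both, with medians of -1.14 and -1.05, among them C3, the cascade's central protein, at -0.96 in KO (SE 0.40, edgeR adjusted p = 0.179), and Calr, an endoplasmic reticulum chaperone that can bind C1q, at -0.36 (SE 0.25, 0.382). In edgeR 0 genes of these lists passed 0.05 in either comparison, where 0% of all genes did.

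These lists rested on WT-2404 to different degrees. Without it the median in KO against WT was -0.37 for the resident list, with 0 of 13 at an unadjusted p under 0.05, and -1.04 for the monocyte list, with 2 of 10 lower. It was -0.54 for the growth factor and transcription factor list (3 of 10), -1.0008 for the phagocytic receptors (5 of 16), -0.57 for the lipid and lysosomal list (2 of 12), -0.70 for the activation list (2 of 7) and -0.52 for complement (3 of 12). Among the genes named, Ccr2 kept -1.32 (SE 0.45, edgeR adjusted p = 0.505) and Spi1 -1.17 (SE 0.51, adjusted p = 0.516), while Folr2 was at -0.57 (SE 0.39, adjusted p = 0.636) and Trem2 at -0.85 (SE 0.56, adjusted p = 0.619). In that fit 5.29% of all genes were lower at an unadjusted p under 0.05. Het against WT without WT-2404 gave medians of -0.75 for the resident list (0 of 13 lower at that p) and -1.02 for the monocyte list (1 of 10). The growth factor and transcription factor list had -0.73 (2 of 10) and the phagocytic receptors -0.87 (4 of 16). The lipid and lysosomal list had -0.63 (1 of 12), the activation list -0.91 (1 of 7) and complement -0.55 (1 of 12), against 3.61% of all genes. The difference between the lists was not tested.

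Markers of other cells moved with the members in part. Pan-leukocyte genes summed to 167 to 406 CPM in WT, 78.97 to 120.2 in Het and 61.0 to 151 in KO libraries, lower in 7 of 7 in both comparisons with medians of -1.47 and -1.48. Among them Laptm5 had -1.83 in KO (SE 0.51, edgeR adjusted p = 0.116), Ptprc -1.27 (SE 0.40, 0.125) and Lcp1 -0.97 (SE 0.27, 0.116). Neutrophil genes, which include Csf3r and the calprotectin gene S100a8, summed to 15.8 to 183 CPM in WT, 6.71 to 12.99 in Het and 1.19 to 19.2 in KO libraries, and 7 of 7 tested genes were lower in both, with a median of -2.51 in KO. The sum was led by WT-2404, and S100a8 had -2.68 (SE 0.995, edgeR adjusted p = 0.156) and Csf3r -1.61 (SE 0.50, 0.121). B and plasma cell genes summed to 59.7 to 98.2 CPM in WT, 16.6 to 28.9 in Het and 9.098 to 54.2 in KO libraries, with 8 of 8 lower in both and Jchain, the joining chain of antibodies, at -1.51 in KO (SE 0.53, edgeR adjusted p = 0.140). T and NK cell genes were scarce, at 4.72 to 10.8 CPM in WT, 2.95 to 3.54 in Het and 1.52 to 8.44 in KO libraries, with 7 of 8 tested genes lower in both. Dendritic cell genes summed to 18.8 to 75.1 CPM in WT, 13.7 to 19.8 in Het and 7.78 to 26.6 in KO libraries, with 8 of 9 lower in both; Clec10a, which macrophages also use, had -1.79 in KO (SE 0.66, edgeR adjusted p = 0.153) and Zbtb46, which endothelium also uses, 0.70 (SE 0.34, 0.231). Mast cell genes were mixed, with sums of 13.5 to 14.6 CPM in WT, 11.2 to 14.2 in Het and 12.1 to 23.2 in KO libraries that are mostly Kit. Of the list's 3 tested genes Kit was at 0.31 and Cpa3 at 0.42 in KO, and Mcpt4, a mast cell protease named after its values were seen, at -1.92 (SE 0.87, edgeR adjusted p = 0.206, unadjusted p = 0.0462), with 0.301 ± 0.341 CPM (SD, n = 4) against 1.31 ± 1.33 in WT (SD, n = 3) and 1 KO library at 0.

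Among cells of the tissue itself, genes of the fibroblast list differed from each other. Their sum was 1265 to 4398 CPM in WT, 546 to 995 in Het and 487 to 1141 in KO libraries, with 7 of 8 lower in KO and 8 of 8 in Het, and Col3a1 and Col1a2, which encode fibrillar collagen, had -2.13 (SE 0.55, edgeR adjusted p = 0.116) and -2.15 (SE 0.56, 0.116) in KO. The fibroblast markers Dcn, decorin, and Dpt, dermatopontin, named after their values were seen, were at 0.0029 (SE 0.24, edgeR adjusted p = 0.995) and -0.15 (SE 0.25, 0.737) in KO, with Dcn at 181 ± 37.6 CPM in KO (SD, n = 4) against 181 ± 30.1 in WT (SD, n = 3). In the list, 4 of 8 genes were lower at an unadjusted p under 0.05 in KO, against 13.9% of all genes. Ductal genes summed to 621 to 749 CPM in WT, 297 to 562 in Het and 305 to 488 in KO libraries, with 6 of 7 lower in both, Krt8 at -0.92 in KO (SE 0.27, edgeR adjusted p = 0.117) and Muc1 at 0.069 (SE 0.38, 0.928). Endothelial genes did not follow, with sums of 108 to 174 CPM in WT, 142 to 162 in Het and 98.3 to 202 in KO libraries, 3 of 8 lower in KO and 2 of 8 in Het, and Pecam1 at 0.30 (SE 0.26) and Cdh5 at 0.037 (SE 0.24). Acinar genes went the other way, with 0 of 10 lower in either comparison and medians of 1.196 and 1.18, Ctrb1 at 0.86 (SE 0.89, edgeR adjusted p = 0.575) and Pnlip at 1.55 (SE 1.05, 0.375). They were counted in every library, from 28709 CPM in WT-2404 upwards. Islet genes summed to 472 to 5639 CPM in WT, 4908 to 9767 in Het and 3565 to 8421 in KO libraries, and 1 of 8 was lower in KO and 0 of 8 in Het. Adipocyte genes were lower in 1 of 6 in KO and 0 of 6 in Het, with Fabp4, which macrophages can also make, at 0.63 (SE 0.27, edgeR adjusted p = 0.187). Without WT-2404 the medians in KO against WT were -1.10 for the pan-leukocyte, -1.75 for the B and plasma cell, -0.75 for the neutrophil, -0.77 for the fibroblast and -1.01 for the ductal list, beside -0.85 for the members. At an unadjusted p under 0.05, 6 of 7, 3 of 8, 1 of 7, 4 of 8 and 4 of 7 genes were lower in the same order. The members had 0 of 10, against 5.29% of all genes. In Het against WT these counts were 5 of 7, 4 of 8, 1 of 7, 2 of 8 and 1 of 7, and 0 of 10 members, against 3.61% of all genes. None of the lists had a gene at 0 in all libraries, and the part of these other cells in the members' differences was not tested.

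**Figure D5:**
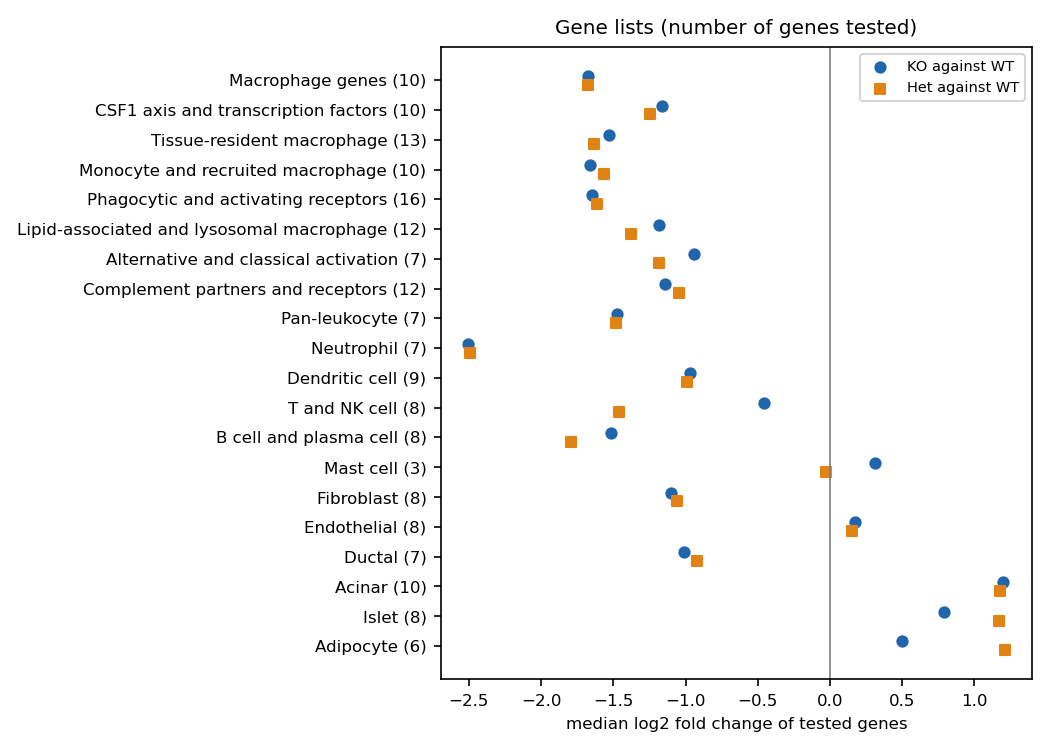
Median log2 fold change of each gene list in KO and in Het, each against WT, with the number of tested genes in brackets and a line at 0. The macrophage genes are at -1.67 and -1.68, the other leukocyte lists are also below 0, except mast cells in KO, and the acinar list is at 1.196 and 1.18.

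The genes outside these lists whose log2 CPM was most like the mean of the members, by Pearson's r over the 10 libraries, were Lipa, Trf, Plin2, Fermt3 and Fbln1. Lipa, the lysosomal acid lipase, had r of 0.995, Trf, transferrin, 0.994, Plin2, a coat protein of lipid droplets, 0.993, Fermt3, the kindlin of blood cells, 0.988 and Fbln1, a matrix protein of fibroblasts, 0.987. Over the 9 libraries without WT-2404 the first 5 were Arhgef25 (0.994), Lipa (0.991), Lat2 (0.989), Trf (0.988) and Fermt3 (0.985). Lipa, Trf and Fermt3 were among the 5 in both. Likeness was common, with 763 of the 13688 tested genes, lists included, above an r of 0.9 over all libraries and 502 without WT-2404, and all genes of a library share its depth and its makeup, so these values describe a pattern and test nothing.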

How the data were processed

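RNA was measured in 10 libraries, 1 per mouse, from pulverised frozen pancreas tail, per the labels' protocols. The authors deposited 1 table of raw, unnormalised counts with 1 row per gene symbol. The submitters' processing notes name mm10, DRAGEN, STAR and Cufflinks. Which of them made these counts, the annotation and the use of strand are not given in the sources used here. All columns were matched to samples by genotype and mouse number (0 left over). A further WT mouse that the labels number was not analysed here, and a further part of the genotype, shared by all groups, is not reported here. The labels give no litter, batch or date, so none could enter the fit.

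The 2 rows naming no gene (reads outside genes, 2.59% to 8.71%, and ambiguous reads, 0.101% to 0.584%) stayed out of library sizes. Genes were filtered with filterByExpr (minimum count 10), scaled by TMM and tested with edgeR 4.0.16 (R 4.3.3, robust quasi-likelihood, two-sided) in 1 fit of all libraries, with Benjamini-Hochberg adjustment over 13688 genes and a threshold of 0.05. Standard errors come from the quasi-F statistic. Log2 CPM used a prior count of 2. DESeq2 1.42.0 and exact permutation tests were alternatives, beside other scalings, no filter, fewer libraries and an enzyme covariate. The edgeR step was checked on simulated data.

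The members, lists and tests were chosen with earlier results of these data known. The rule for naming took the members, Insr, 12 fixed genes (Spi1, Csf1, Il34, Ptprc, Trem2, Ccr2, Ly6c2, Timd4, Lyve1, Folr2, Cx3cr1 and Lyz1), from each list the 2 genes with the highest mean log2 CPM and any gene past the threshold, and the 5 genes most like the members. Of these, Cd4, Cd3e, Cd79b, Ins1, Ins2 and Adipoq are left without values here. Mcpt4, Dcn and Dpt were named outside the rule, after their values were seen. Promoters are from RefSeq (GRCm38.p6), and gene positions, exon lengths and coding sequences from GENCODE (GRCm38).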

Additional observations from a re-analysis of the deposited data

Results flagged for a closer look

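Insr was at 22.7 CPM in KO-2079, below the other KO libraries, which lay between 33.3 and 35.5 CPM, a gap of 0.834 of the group's range. It was the 1 value of 27 measures examined that lay so far from its group, where chance gives about 1.35.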

How the results depend on the processing

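No paired analysis was possible because the groups share no mouse number. With library size alone as the scaling, edgeR called 2841 of the 13688 tested genes for KO and 3140 for Het, each against WT. All 10 members were among them in both. The members' medians were -3.06 and -3.45, where the medians of all genes moved to -1.17 and -1.36. DESeq2 called 1015 genes and 9 members for KO and 385 genes and 2 members for Het. With the enzyme ratio as a covariate the members' medians were -0.55 and -0.40, and Cd163 turned to 0.048 in KO and 0.22 in Het. Leaving out each library in turn gave 0 to 1932 called genes, 0 to 8 called members and medians of -2.03 to -0.85 for KO, and 0 to 1160 genes, 0 members and medians of -2.01 to -0.86 in Het against WT. The highest counts were without WT-2067 and the medians nearest 0 without WT-2404. The cause was not tested. In KO against Het the members' median, near 0 throughout, changed sign with RLE size factors (-0.00031), the enzyme genes left out of the scaling (-0.0035), DESeq2 (-0.0055) and the enzyme covariate (-0.15), and ran from -0.33 to 0.23 with a library left out. Over single members and all alternatives, 152 values in KO and 167 in Het kept their direction and side of the threshold, 27 and 12 kept the direction and passed it, and 1 in each, Cd163, turned. Of the 167, 10 are exact permutation tests, whose smallest possible p of 0.1 cannot pass 0.05. Fits with a library left out, which share most libraries, gave 92 of the 152 and 100 of the 167. A value that kept its direction could still differ in size, as without WT-2404, so the tally measures no robustness. The lowest count of a member in a library was 27 (Cd68 in KO-2070), so counting error was small beside the spread between mice, while Ly6c2 lies near the limit.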
